A study of Homo sapiens with 58 samples.

Results

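The genes described here were 9 enzymes of the oxidative stress response that are textbook targets of the transcription factor NRF2. They were chosen by name, with earlier results of these data known. All 9 were found among the 19775 genes that the arrays measured through a probe set assigned to 1 gene symbol. The aldo-keto reductases AKR1C1, AKR1C3 and AKR1B10 reduce aldehydes, ketones and steroids with NADPH. NQO1 reduces quinones, and HMOX1 degrades heme. GCLC and GCLM are the catalytic and modifier subunits of the enzyme that starts glutathione synthesis. TXNRD1 reduces thioredoxin, and SRXN1 restores oxidised peroxiredoxins.

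RNA was measured on 58 Affymetrix U133 Plus 2.0 arrays in HaCaT cells, a line of immortalized human keratinocytes. The lines were HaCaT itself, the HaCaT-vector control, HaCaT-EGFR with forced expression of EGFR, HaCaT-p65 with forced expression of RELA/p65, and HaCaT-HRAS with forced expression of HRAS-VAL12D. All 5 lines were grown in serum, with 3 arrays each and 5 for HaCaT-EGFR. Of those 5, 1 was at 4 h and 1 at 8 h, both of the last processing date, and the other serum arrays had no such time. They were pooled as 1 condition. The authors' removal of date effects gave the 2 timed arrays the mean of the other 3, because no other condition links the date of those 3 to another. Ranges and overlap over these 5 arrays are thus not 5 separate readings. Starved cells, kept without serum, were measured in HaCaT-vector (4 arrays), HaCaT-EGFR (7) and HaCaT-p65 (3). EGF was given to HaCaT-vector (4) and HaCaT-EGFR (7), and TNF to HaCaT-vector (3) and HaCaT-p65 (5), for 4 or 8 h. The ligands were added after a time in serum-free medium. The HaCaT-vector arrays without serum were all at 4 h, whereas 2 of the 7 starved and 2 of the 7 EGF arrays of HaCaT-EGFR, and 1 of 3 starved and 1 of 5 TNF arrays of HaCaT-p65, were at 8 h. Comparisons of these lines without serum, and of their responses, thus set mixed times against 4 h. The EGFR inhibitor gefitinib was given to HaCaT-EGFR with EGF (2 arrays) or with serum (2), and the PI3K inhibitor LY294002 and the MEK inhibitor U1026 were given with EGF on 1 array each in HaCaT-EGFR and HaCaT-vector. Neither the labels nor the methods say whether a line was a clone or a pool, or whether replicates were separate cultures, so p-values measure the spread between arrays, which may be technical. The keratinocyte genes KRT5, KRT14, CDH1, DSP and PERP had median levels of 9.98 to 12.43 over the arrays (log2), and those of 3 leukocyte genes were 3.81 to 4.38. Several of the 6 fibroblast and 4 endothelial genes differed between groups. COL3A1 lay at 2.02 to 2.66 in HaCaT-HRAS serum and at 5.25 to 5.83 in starved HaCaT-vector. LUM was at 8.96 to 10.38 on the HaCaT-p65 arrays, against a median of 5.76 over all arrays, but also at up to 9.38 in HaCaT serum. CDH5 lay at 8.55 to 8.73 in HaCaT-HRAS, against 4.20. The medians of the other 5 fibroblast genes were 4.88 to 6.72 and of the other 3 endothelial genes 3.80 to 5.49, and the part of such cells in the values below was not tested.

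NRF2, encoded by NFE2L2, is held low in the cytoplasm by KEAP1, which directs it to degradation. Electrophiles and oxidants block that step, and NRF2 then enters the nucleus, pairs with small MAF proteins and binds antioxidant response elements, sites that BACH1 can occupy instead. In the epidermis these enzymes handle the oxidants and chemicals that reach the skin, and the NRF2 protein is set largely by its stability rather than by its mRNA.

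The core of the antioxidant response element, TGACNNNGC, was searched on both strands in the RefSeq promoters of GRCh38.p14, from 250 bases before to 50 after each start. Of 35116 promoters, 13.3% held it. Among the members, 7 of 9 had a promoter in the table, and 2 of these had a match, GCLM at 1 site and TXNRD1 at 3 sites over 2 starts. The matches are shown with 10 bases on each side, on the strand of the gene, with the motif in capitals, because they are the only such letters in the windows of the members.
GCLM (chr1:93909446-93909474, minus strand): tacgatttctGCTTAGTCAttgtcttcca
TXNRD1 (chr12:104215670-104215698, plus strand): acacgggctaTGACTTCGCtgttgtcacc
TXNRD1 (chr12:104215761-104215789, plus strand): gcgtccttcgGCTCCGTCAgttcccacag
TXNRD1 (chr12:104286920-104286948, plus strand): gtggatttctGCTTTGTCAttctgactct
The windows of AKR1C1, AKR1C3, NQO1, GCLC and SRXN1 held no match. A match is a description of letters, and the absence of one says only that these letters are not in the window.

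AKR1C1 and AKR1C3 lie near each other on chromosome 10 with AKR1C2, and their upstream sequences are shown because AKR1C2 was the gene most like AKR1C1 over the conditions (below) and AKR1C3 is a member. Each line gives the 100 bases before a RefSeq start in GRCh38.p14, and capitals mark bases that differ from AKR1C1 at the shift with the most identical bases, without gaps. Bases beyond the compared stretch are also in lower case. They lie at the end of AKR1C2, the beginning of the first AKR1C3 line and the end of the second.
AKR1C1 (chr10:4963315-4963414, plus strand): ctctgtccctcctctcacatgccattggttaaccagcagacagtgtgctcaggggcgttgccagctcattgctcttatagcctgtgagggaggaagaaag
AKR1C2 (chr10:5003858-5003957, minus strand): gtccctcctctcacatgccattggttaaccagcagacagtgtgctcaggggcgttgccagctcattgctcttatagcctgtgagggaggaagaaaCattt
AKR1C3 (chr10:5048681-5048780, plus strand): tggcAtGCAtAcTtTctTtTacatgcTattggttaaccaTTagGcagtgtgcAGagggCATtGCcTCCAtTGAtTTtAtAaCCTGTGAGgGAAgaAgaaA
AKR1C3 (chr10:5094314-5094413, plus strand): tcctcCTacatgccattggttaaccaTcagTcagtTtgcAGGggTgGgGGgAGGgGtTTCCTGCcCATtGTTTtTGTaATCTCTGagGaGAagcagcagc
AKR1C2 shared 95 of 96 compared bases with AKR1C1 in 1 unbroken run. The starts of AKR1C3 shared 52 of 96 and 48 of 91, with longest runs of 12 and 19 bases. The probe set used for AKR1C1, 216594_x_at, is of a kind that can hybridise to several transcripts, and so is 204151_x_at. Neither can be separated here from AKR1C2, so the AKR1C2 values below may not be a separate reading.

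Where several probe sets of a gene were present, the brightest over all arrays stands for it, on the authors' log2 scale, from which they had removed a processing-date effect. The members had 20 such probe sets in all. Differences were tested with limma in 1 fit of 18 conditions and 6 processing dates, with Benjamini-Hochberg adjustment over all genes, and "rose" and "fell" are used for adjusted p-values under 0.05. Over 22 comparisons the members were called 23 times in 198 tests (11.6%, against 4.63% of all tests of all genes). The calls fell in 11 comparisons, and 7 of the 9 members were called at least once. Since the members were chosen with earlier results of these data known, neither this share nor those below are a test of the set. TXNRD1 and SRXN1 were called in no comparison. All calls separated lines or separated serum from starvation, and no member was called for EGF, TNF or an inhibitor. Comparisons share arrays, above all those of HaCaT and HaCaT-vector in serum, so their values are not independent of each other.

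**Figure D1:**
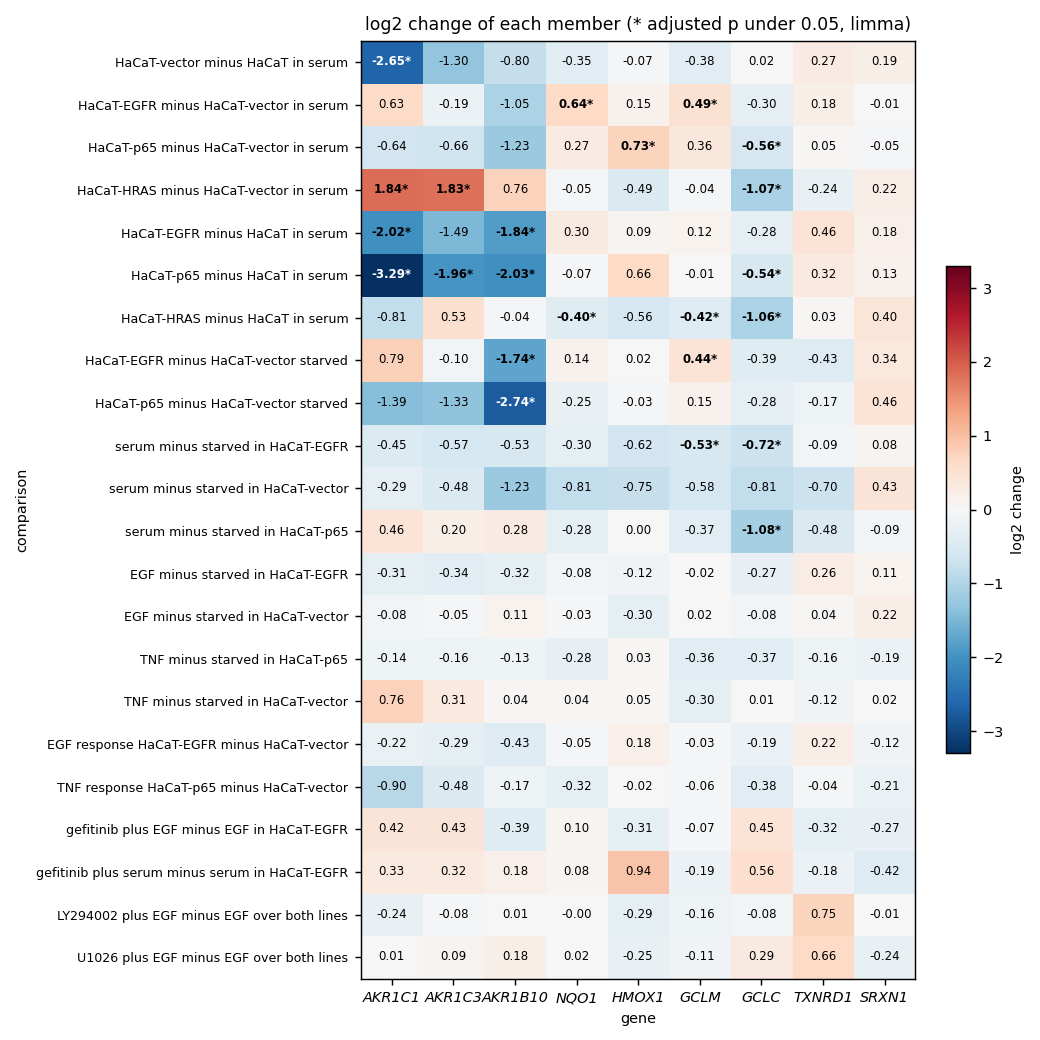
The log2 change of each member (columns) in each of the 22 comparisons (rows), with the colour scale in log2 units and an asterisk at adjusted p-values under 0.05 (limma). Each cell also prints its value. The 3 aldo-keto reductases hold the strongest colours, down to -3.29 for AKR1C1 in HaCaT-p65 against HaCaT, and the ligand and inhibitor rows hold no asterisk.

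Of the aldo-keto reductases, AKR1C1 had the largest difference between lines in serum. It measured 12.74, 10.42 and 11.93 in HaCaT, 9.29, 8.86 and 8.97 in HaCaT-vector, and 8.85, 8.20 and 8.17 in HaCaT-p65. The 3 lines did not overlap, although HaCaT-p65 and HaCaT-vector nearly touched (-0.64 ± 0.46, adjusted p = 0.60), and the HaCaT arrays were spread widely. In HaCaT-HRAS the gene measured 10.87, 11.33 and 10.46, above every HaCaT-vector array. In HaCaT-EGFR the 5 arrays ran from 9.39 to 10.21 with a median of 9.43, below HaCaT and above HaCaT-vector without a call against the latter (0.63 ± 0.46, adjusted p = 0.64).

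HaCaT-vector against HaCaT asks what the introduction of an empty vector and the culture of that line go with. AKR1C1 was 6.29-fold lower in HaCaT-vector (log2 change -2.65 ± 0.46 SE, n = 3 and 3, limma adjusted p = 0.00022), and it was the only 1 of the 9 members called, against 2.87% of all genes. The arrays of the lines did not overlap in 3 of 9 members, AKR1C1, AKR1C3 and GCLM, and in 13.1% of all genes. AKR1C3 differed by -1.30 ± 0.49 (adjusted p = 0.20) and AKR1B10 by -0.80 ± 0.49 (adjusted p = 0.65). A second AKR1C1 probe set of the same kind, 204151_x_at, fell by 2.42 (adjusted p = 0.00014). The dimmer 217626_at, which is not of that kind, differed by -0.81 without passing (adjusted p = 0.17). Of the pathway lists, 4 of 53 genes fell and 0 rose: AKR1C2 (-2.39), GSTA4 (-1.26) and GSTM3 (-1.03), which conjugate glutathione, and GSS (-0.48), which completes glutathione. AKR1C2 may hold the same signal as AKR1C1. NQO1 differed by -0.35 (adjusted p = 0.23), but its probe set 210519_s_at fell by 0.57 (adjusted p = 0.0074). Markers differed here too: LUM measured 5.82 to 9.38 in HaCaT and 4.42 to 5.03 in HaCaT-vector, and DCN 5.20 to 6.44 and 4.86 to 5.18, and their part in the change was not tested. The AKR1C1 call held with any 1 array left out, with changes of -3.29 to -2.13, and was lost when only these arrays were fitted.

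HaCaT-HRAS against HaCaT-vector asks what oncogenic HRAS goes with. AKR1C1 rose 3.58-fold (1.84 ± 0.46, adjusted p = 0.0026) and AKR1C3 rose 3.56-fold (1.83 ± 0.49, adjusted p = 0.0049), while GCLC was 2.11-fold lower (-1.07 ± 0.17, adjusted p = 3.5e-06). AKR1C3 measured 7.78 to 8.20 in HaCaT-HRAS and 5.91 to 6.47 in HaCaT-vector. GCLC measured 8.69, 8.53 and 8.48 against 9.66, 9.54 and 9.72. The arrays of the lines did not overlap in 6 of 9 members, these 3 included, and in 35.5% of all genes, and the 3 calls were kept with any 1 array left out. Of all genes 18.2% were called in this comparison. AKR1B10 differed by 0.76 ± 0.49 (adjusted p = 0.36), and the other 5 members by -0.49 to 0.22. HMOX1 was lower on every HaCaT-HRAS array (3.52 to 3.63) than on any HaCaT-vector array (3.93 to 4.19), but missed the threshold (adjusted p = 0.14). The other probe sets moved alike for AKR1C1 204151_x_at (1.43) and 217626_at (1.32) and for GCLC 202923_s_at (-0.92), all with adjusted p-values under 0.05. CDH5 was also high in this line, the only 1 of 4 endothelial genes whose arrays did not overlap those of HaCaT-vector. All 5 keratinocyte genes were below HaCaT-vector without overlap, KRT14 at 10.72 to 10.89 against 13.03 to 13.23 and DSP at 8.81 to 9.00 against 9.83 to 10.12. The part of CDH5 and of these 5 genes in the changes was not tested. The dim AKR1C1 probe sets 1555855_at and 1555856_s_at differed by -0.05 each and GCLC 1555330_at by -0.26 (adjusted p = 0.64).

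The other genes of the pathway moved in both directions in HaCaT-HRAS, with 7 of 53 higher and 9 lower than in HaCaT-vector, a median change of -0.09, and 37 not passing. The 4 with the largest changes were GSTM3 (2.64), CYP4F11, a fatty acid hydroxylase (-1.94), ALDH3A1, an aldehyde dehydrogenase (1.88), and PTGR1, a prostaglandin reductase (-1.64). AKR1C2, which cannot be separated here from AKR1C1, rose by 1.61. NFE2L2, KEAP1 and BACH1 differed by -0.14, -0.21 and -0.19, and none of them passed. NFE2L2 (-0.39 to 0.41) and BACH1 (-0.19 to 0.26) were called in none of the 22 comparisons. Against HaCaT, HaCaT-HRAS was lower in GCLC (-1.06 ± 0.17, adjusted p = 5.3e-06), GCLM (-0.42 ± 0.12, adjusted p = 0.012) and NQO1 (-0.40 ± 0.14, adjusted p = 0.035), where 17.7% of all genes were called. The arrays did not overlap in 3 of 9 members, GCLC, GCLM and HMOX1, and in 26.6% of all genes. AKR1C1 then differed by -0.81 and AKR1C3 by 0.53, without passing. GCLC fell with any 1 array left out. NQO1 was lost without the first HaCaT array (-0.14, adjusted p = 0.58) and without either of the HaCaT-HRAS arrays numbered 2 and 3, and GCLM without the second HaCaT-HRAS array (-0.32, adjusted p = 0.12) or the first HaCaT array. Calls were also gained, for AKR1C1 without the second HaCaT array (-1.45, adjusted p = 0.027) and for SRXN1 without the first (0.67, adjusted p = 0.0037).

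**Figure D2:**
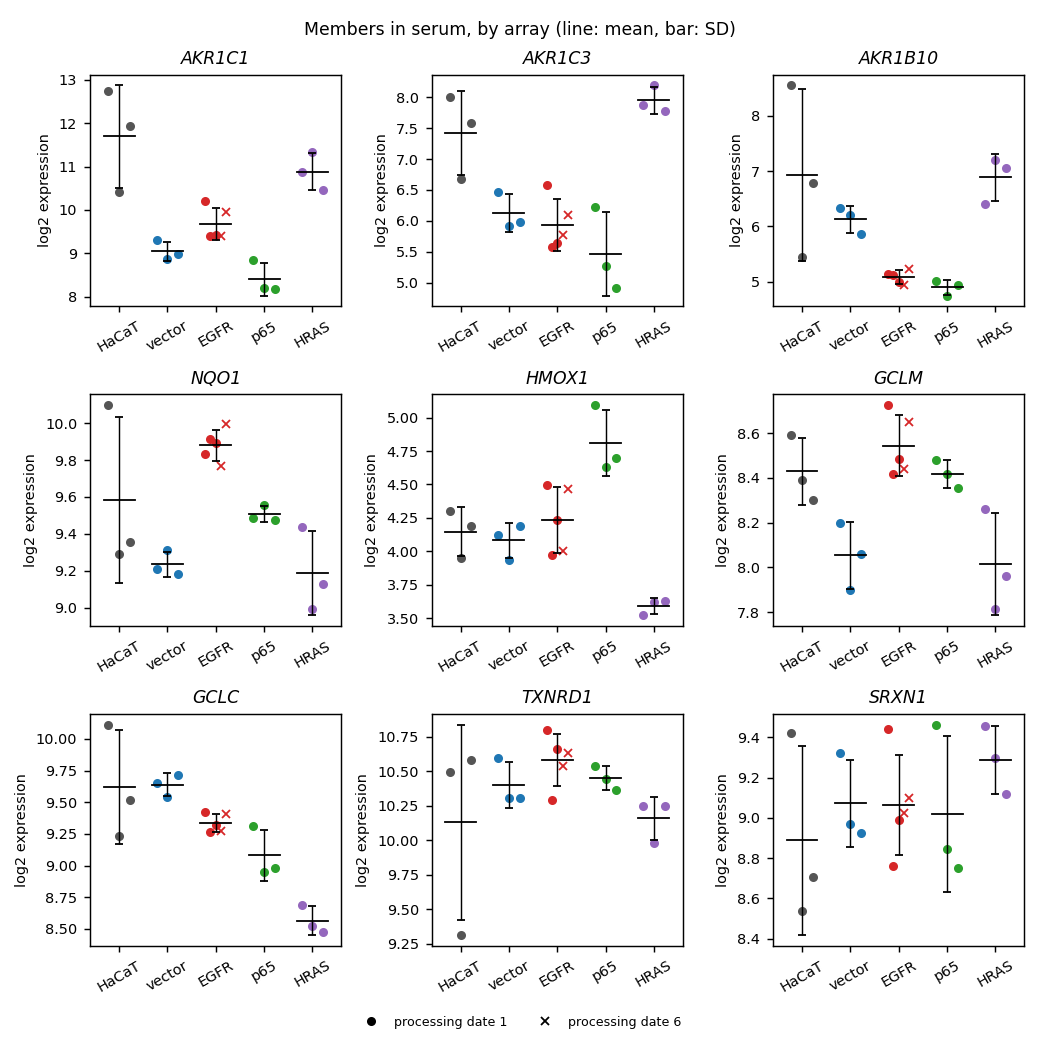
Log2 expression of the 9 members in the 5 lines in serum, 1 point per array, with the mean as a line and the SD as a bar; crosses are the 2 HaCaT-EGFR arrays of the last processing date. The HaCaT-HRAS arrays of AKR1C3 (7.78 to 8.20) lie above, and those of GCLC (8.48 to 8.69) below, the arrays of HaCaT-vector, and the 3 HaCaT arrays of AKR1C1 spread from 10.42 to 12.74.

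In HaCaT-EGFR the quinone reductase and the modifier subunit were higher than in HaCaT-vector. NQO1 measured 9.77 to 9.99 with a median of 9.89 on the 5 HaCaT-EGFR arrays and 9.18 to 9.31 on the HaCaT-vector arrays, and rose by 0.64 ± 0.14 (1.56-fold, adjusted p = 0.00092). GCLM measured 8.42 to 8.73 against 7.90 to 8.20 and rose by 0.49 ± 0.12 (1.41-fold, adjusted p = 0.0056). These were 2 of 9 members called, against 7.87% of all genes, while AKR1C1, AKR1B10, NQO1, GCLM and GCLC, 5 of 9, were without overlap, against 21.6%. NQO1 210519_s_at rose by 0.59 (adjusted p = 0.0016) and 201467_s_at differed by 0.47 (adjusted p = 0.18). GCLM 236140_at differed by 0.49 (adjusted p = 0.065) but 203925_at by 0.06. AKR1B10 was below HaCaT-vector on all HaCaT-EGFR arrays (4.93 to 5.24 against 5.86 to 6.33) and did not pass (-1.05 ± 0.49, adjusted p = 0.26), but passed with only the arrays compared (adjusted p = 0.0033), where GCLM was lost. Only HaCaT-EGFR in serum links date 1, which holds all other serum arrays, to another date, so the fitted line differences rest on its 3 arrays of date 1 and did not move when an array of date 6 was left out. The removal of dates set the mean of its 2 arrays of date 6 to that of these 3. The ranges, medians and overlap over 5 arrays therefore rest on the same 3 for their level. GCLM did not pass without the first HaCaT-EGFR array (0.40, adjusted p = 0.068) or without the second HaCaT-vector array, and NQO1 passed with any 1 array left out. Of the pathway lists 3 of 53 genes rose and 2 fell, among them GSTM3 (2.86), GSTA4 (1.25), GSS (0.55) and AKR1E2 (-0.54).

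HaCaT-p65 asks what forced NF-κB activity goes with. Against HaCaT-vector in serum HMOX1 rose by 0.73 ± 0.22 on the log2 scale (adjusted p = 0.035), with 5.10, 4.63 and 4.70 against 4.12, 3.93 and 4.19. These levels lie near or below the array medians (4.98 to 5.24), so no fold is given. GCLC fell by 0.56 ± 0.17 (adjusted p = 0.031), with 9.31, 8.95 and 8.98 against 9.66, 9.54 and 9.72. AKR1B10 measured 4.75 to 5.01 against 5.86 to 6.33 and did not pass (-1.23 ± 0.49, adjusted p = 0.15), but did with only the arrays compared (adjusted p = 0.0036). The 2 calls among 9 members stand against 7.18% of all genes. AKR1C1, AKR1B10, NQO1, HMOX1, GCLM and GCLC, 6 of 9, were without overlap, against 22.7% of all genes. LUM was also high in this line (9.96 to 10.08 against 4.42 to 5.03), and its part in the changes was not tested. With 1 array of the comparison left out, HMOX1 passed only without the second HaCaT-p65 array (changes 0.59 to 0.82 over 6 fits, adjusted p up to 0.17), and GCLC only without the first HaCaT-p65 or the second HaCaT-vector array (-0.67 to -0.49, adjusted p up to 0.15). GCLC was also lost with only the arrays compared. Neither passed without the last processing date, which holds no array of these groups. Of the pathway lists 2 of 53 genes rose and 2 fell, namely SLC48A1, a heme transporter (0.89), BLVRA, which reduces biliverdin, the product of heme oxygenase (0.34), TXN, thioredoxin (-0.48), and ME1, a source of NADPH (-0.39).

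Against HaCaT, the 3 aldo-keto reductases were all lower in HaCaT-p65, in a comparison where 5.94% of all genes were called. AKR1C1 was 9.78-fold lower (-3.29 ± 0.46, adjusted p = 3.0e-06). AKR1C3 measured 4.92 to 6.22 in HaCaT-p65, with a median of 5.26 near the array medians, and differed by -1.96 ± 0.49 (adjusted p = 0.0077). AKR1B10, at 4.75 to 5.01 in HaCaT-p65 and so below or near the array medians, differed by -2.03 ± 0.49 (adjusted p = 0.0059). GCLC fell by 0.54 (adjusted p = 0.045). All 3 reductases and HMOX1, which did not pass (0.66, adjusted p = 0.073), were without overlap, as were 14.7% of all genes. In HaCaT-EGFR AKR1C1 (-2.02 ± 0.46, adjusted p = 0.0050) and AKR1B10 (-1.84 ± 0.49, adjusted p = 0.021) were below HaCaT, where 3.88% of all genes were called, and AKR1C3 differed by -1.49 (adjusted p = 0.079). These 3 of 9 members were without overlap, against 11.4% of all genes. These values rested in part on the first HaCaT array. Without it, AKR1B10 differed from HaCaT by -1.21 in HaCaT-p65 (adjusted p = 0.17) and by -1.03 in HaCaT-EGFR (adjusted p = 0.26), AKR1C3 in HaCaT-p65 by -1.67, GCLC in HaCaT-p65 by -0.29 (adjusted p = 0.49), and AKR1C1 in HaCaT-EGFR by -1.50 (adjusted p = 0.061). In HaCaT-EGFR NQO1 was gained without that array (0.56, adjusted p = 0.0023), and AKR1C3 without the second HaCaT array (-1.86, adjusted p = 0.047). AKR1C1 in HaCaT-p65 still fell without the first, by 2.77 (adjusted p = 0.00018). AKR1C3 was also lost without HaCaT-p65 array 3 (-1.68, adjusted p = 0.071), GCLC without HaCaT-p65 array 2 or 3 (-0.47 and -0.49) or HaCaT array 3 (-0.59), and AKR1B10 in HaCaT-EGFR without any 1 of its 3 arrays of date 1 (-1.87 to -1.79), and in fits of only the arrays compared no member passed against HaCaT in either line.

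Without serum, AKR1B10 had the largest line differences. It measured 6.88, 7.61, 7.57 and 7.37 in starved HaCaT-vector, 4.69, 4.28 and 4.89 in starved HaCaT-p65, and 4.47 to 6.30 with a median of 5.90 in starved HaCaT-EGFR. Neither line overlapped HaCaT-vector. Of the 9 members 6 were without overlap in HaCaT-p65, against 40.3% of all genes, and 4 in HaCaT-EGFR, against 19.7%. AKR1B10 fell in HaCaT-p65, to levels below the array medians, so that only the log2 change is given (-2.74 ± 0.67, adjusted p = 0.0092), the only member called there, with 5.3% of all genes called. It was lower in HaCaT-EGFR (-1.74 ± 0.56, adjusted p = 0.045), where GCLM rose by 0.44 ± 0.14 (adjusted p = 0.041) and 7.89% of all genes were called. Within the 1 processing date that holds both HaCaT-EGFR (3 arrays) and HaCaT-vector (1 array), the differences were -1.92 for AKR1B10 and 0.39 for GCLM. No date holds both HaCaT-p65 and HaCaT-vector starved, so that difference rests on the date estimates, and line and date cannot be told apart within a date. On the last date, 1 starved and 1 EGF array of HaCaT-vector linked the other dates of that line to those of HaCaT-EGFR. Without the starved one, AKR1B10 kept its size but not its call in HaCaT-p65 (-2.72, adjusted p = 0.19) and in HaCaT-EGFR (-1.72, adjusted p = 0.51). With 1 array of the comparison left out, AKR1B10 was called in 5 of 11 fits in HaCaT-EGFR (-1.89 to -1.54) and in 6 of 7 in HaCaT-p65 (-2.92 to -2.57), and GCLM in 7 of 11 (0.40 to 0.51). Both calls in HaCaT-EGFR were also lost with a replicate block, with the times fitted apart, at 4 h only and over all probe sets, and AKR1B10 in HaCaT-p65 with the times fitted apart and at 4 h only. AKR1C1 was lower on every HaCaT-p65 array (7.51 to 8.43) than on the HaCaT-vector arrays (9.19 to 9.48) but did not pass (-1.39 ± 0.63, adjusted p = 0.23).

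The pathway lists had 1 of 53 genes higher and 7 lower in starved HaCaT-p65, led by GPX2, a glutathione peroxidase (-1.38), ALDH3A1 (-1.38), BLVRB, a biliverdin reductase (-1.12), and CBR3, a carbonyl reductase (-0.98). In starved HaCaT-EGFR 3 rose and 4 fell, led by GSTM3 (1.91), ABCC3, a drug exporter (-1.15), GSTA4 (1.02) and GSS (1.01).

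**Figure D3:**
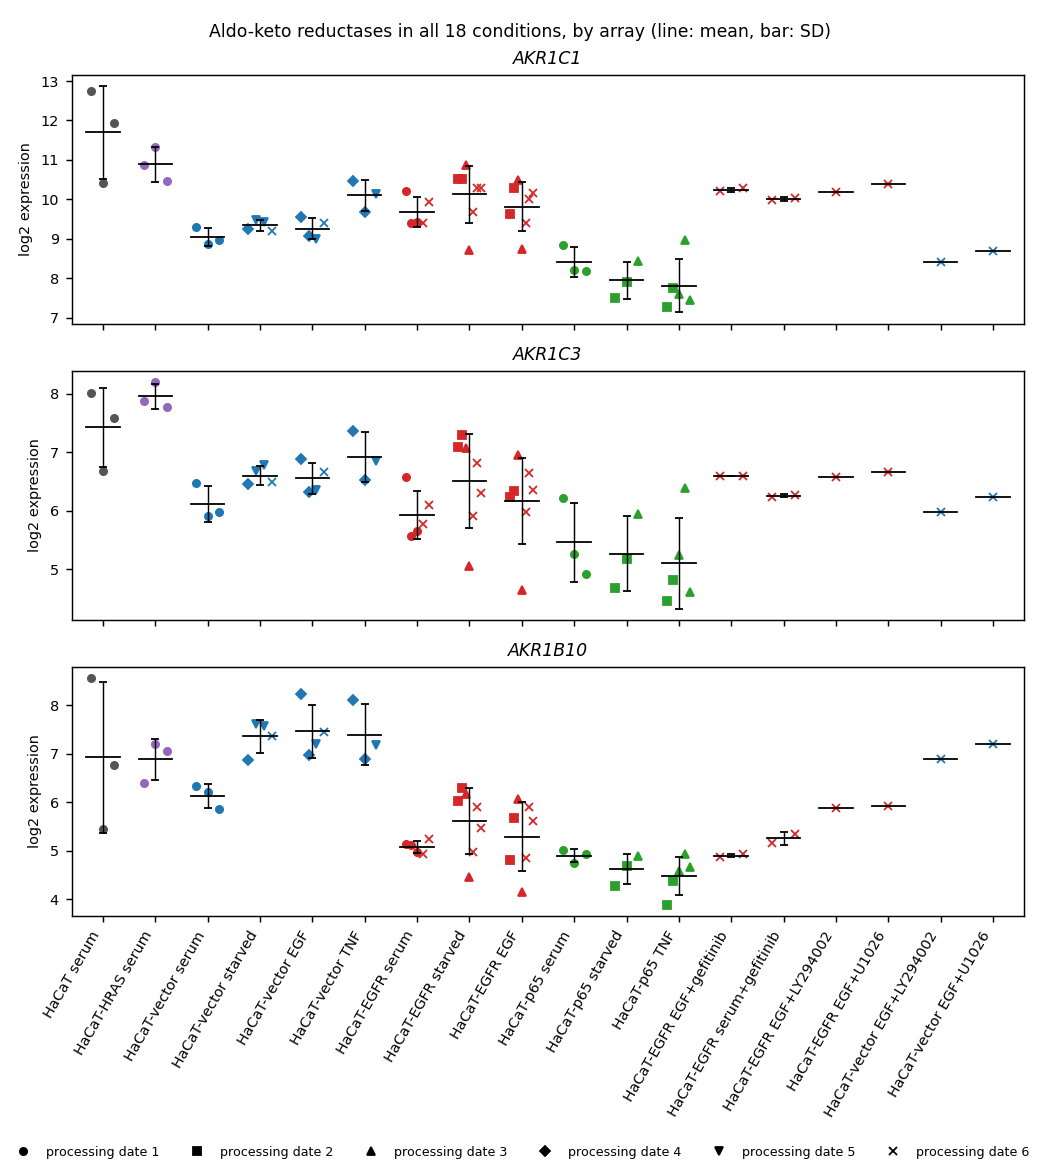
Log2 expression of AKR1C1, AKR1C3 and AKR1B10 in all 18 conditions, 1 point per array with the symbol of its processing date, the mean as a line and the SD as a bar (single arrays have no bar). AKR1B10 sits at 6.88 to 7.61 in starved HaCaT-vector and at 4.28 to 4.89 in starved HaCaT-p65, and AKR1C1 has its lowest means without inhibitor in the 3 HaCaT-p65 conditions.

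Between serum and starvation, GCLC and GCLM differed in HaCaT-EGFR and GCLC in HaCaT-p65, and neither passed in HaCaT-vector. In HaCaT-EGFR GCLC measured 9.27 to 9.42 with a median of 9.32 in serum and 9.79 to 10.26 with a median of 10.06 when starved, and was lower in serum by 0.72 ± 0.18 (1.65-fold, adjusted p = 0.015). GCLM measured 8.42 to 8.73 against 8.85 to 9.18 and was lower in serum by 0.53 ± 0.13 (1.44-fold, adjusted p = 0.015). These 2 of 9 members stand against 3.25% of all genes called. Without overlap were 4 of 9 members, against 9.76% of all genes. Within the last date, which holds 2 serum and 3 starved arrays, the differences were -0.68 and -0.50. A second GCLC probe set, 202923_s_at, fell by 0.69 (adjusted p = 0.022), and the other probe sets of both genes differed by -0.64 to -0.45 without passing. NQO1 (-0.30) and HMOX1 (-0.62) were lower on every serum array without passing. HMOX1, at levels near or below the array medians, passed with a replicate block (-0.59, adjusted p = 0.033). It differed by -1.03 with the 4 h arrays alone and by -0.06 at 8 h, each with 1 serum array. Without the serum array at 8 h GCLM differed by -0.42 (adjusted p = 0.16), and without that at 4 h GCLC differed by -0.79 (adjusted p = 0.20). Each call was also lost without the other of these arrays, at 4 h or 8 h only, and when only these arrays were fitted.

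In HaCaT-p65 GCLC measured 9.31, 8.95 and 8.98 in serum and 10.24, 10.24 and 10.02 when starved, and was lower in serum by 1.08 ± 0.28 (2.12-fold, adjusted p = 0.048), the only member called there, against 0.703% of all genes. GCLM, NQO1 and TXNRD1 were without overlap too, as were 31.1% of all genes. With 1 array of the comparison left out, the call was kept only without the first serum array (-1.20 to -1.02 over 6 fits, adjusted p up to 0.12). In HaCaT-vector 7 of 9 members did not overlap between the media, but 45.7% of all genes did not overlap either, and no member was called by limma (0.976% of all genes were), while 4 of 9 had unadjusted p-values under 0.05. Its values included NQO1 (-0.81 ± 0.22, adjusted p = 0.065), GCLC (-0.81 ± 0.28, adjusted p = 0.18), TXNRD1 (-0.70 ± 0.39, adjusted p = 0.53) and SRXN1 (0.43 ± 0.28, adjusted p = 0.64). In neither of these lines does a date hold both media, so medium and date cannot be told apart there except through the dates of HaCaT-EGFR. Of the 6 fibroblast genes, 3 were higher in starved HaCaT-vector without overlap, LUM (6.70 to 7.70 starved, 4.42 to 5.03 in serum), COL3A1 (5.25 to 5.83 and 2.47 to 3.68) and DCN. COL1A1, 1 of the 6, was lower without overlap (6.58 to 6.68 and 6.76 to 6.91). So were 3 of the 5 keratinocyte genes, KRT14 (12.28 to 12.36 and 13.03 to 13.23), CDH1 and PERP. The part of all these genes was not tested. Fitted without the date term, 7 members were called in HaCaT-vector. That fit takes the date effects removed by the authors as known, so its p-values leave out their error and are too small.

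Of the pathway lists, 1 of 53 genes was higher and 5 were lower in serum than in starved HaCaT-EGFR, with a median change of -0.21. The largest were GSTA4 (-0.87), CBR3 (-0.76), SQSTM1, an adaptor that binds KEAP1 (-0.67), and GSR, glutathione reductase (-0.60). KEAP1 fell by 0.33 (adjusted p = 0.031), while NFE2L2 (-0.39) did not pass. In HaCaT-vector CBR3 alone passed (-1.16), and in HaCaT-p65 no gene of the lists did (4 had unadjusted p-values under 0.05).

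**Figure D4:**
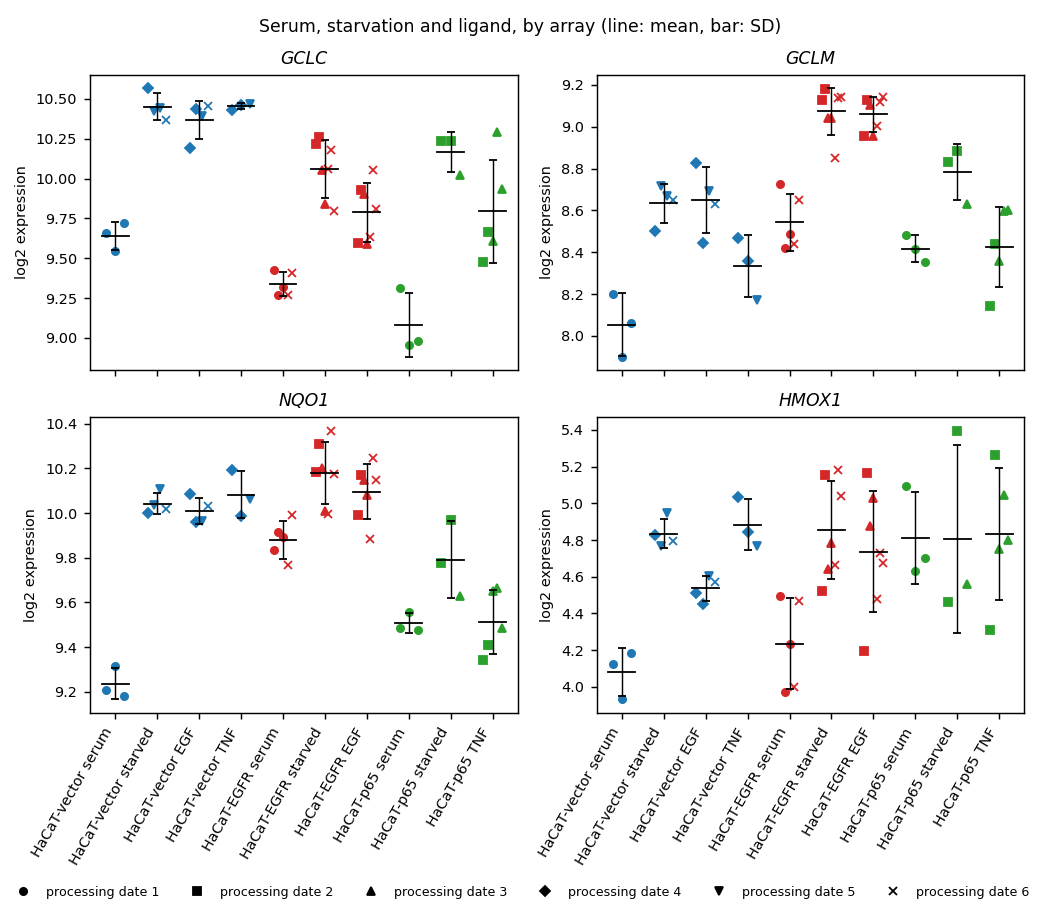
Log2 expression of GCLC, GCLM, NQO1 and HMOX1 in serum, starved cells and with ligand in HaCaT-vector, HaCaT-EGFR and HaCaT-p65, 1 point per array with the symbol of its processing date, the mean as a line and the SD as a bar. The serum arrays of GCLC lie below the starved arrays in all 3 lines, and GCLM lies at similar levels in starved and EGF-treated HaCaT-EGFR.

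EGF and TNF asked whether a few hours of ligand change these genes, and no member was called for either. EGF in HaCaT-EGFR changed 8.8% of all genes and 0 of 9 members by limma (1 member, GCLC, at an unadjusted p under 0.05). The arrays overlapped in all 9, and 2.54% of all genes were without overlap. The largest member differences were AKR1C3 (-0.34, 95% confidence interval -0.98 to 0.30), AKR1B10 (-0.32, -0.97 to 0.33) and AKR1C1 (-0.31, -0.91 to 0.30). Intervals were narrower for GCLM (-0.02, -0.18 to 0.15) and NQO1 (-0.08, -0.26 to 0.10). GCLC differed by -0.27 (-0.49 to -0.05, unadjusted) with an adjusted p = 0.13, and by -0.48, -0.20 and -0.18 within the 3 dates that hold both conditions. Of the pathway lists, 4 of 53 genes rose and 7 fell, with CBR3 (-0.60), GLRX, glutaredoxin (-0.57), GSTA4 (-0.56) and MAFF, a small MAF protein (0.53), at the front, and KEAP1 fell by 0.34 (adjusted p = 6.4e-05). In HaCaT-vector, where 1.01% of all genes were called, the members differed by -0.30 (HMOX1) to 0.22 (SRXN1) with EGF, and 0 of 9 passed by limma even unadjusted. The test of the difference in EGF response between the lines called 0 members, also unadjusted, and 0% of all genes.

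TNF was compared with starvation in HaCaT-p65, where 2.03% of all genes were called, and in HaCaT-vector, where 0.905% were. GCLM measured 8.14 to 8.60 with TNF and 8.63 to 8.89 without it in HaCaT-p65 (-0.36 ± 0.11, adjusted p = 0.077), and 8.17 to 8.47 against 8.50 to 8.71 in HaCaT-vector (-0.30 ± 0.12, adjusted p = 0.54). In neither line did its arrays overlap (as in 8.91% and 21.5% of all genes), and in neither did it pass. One of the 5 TNF arrays of HaCaT-p65 is described as a control in the study's sample sheet, and without it GCLM fell by 0.40 in HaCaT-p65 (adjusted p = 0.041). GCLM (-0.39, adjusted p = 0.036) and GCLC (-0.48, adjusted p = 0.041) also passed without another array, the second TNF replicate at 4 h of date 3. AKR1C1 in HaCaT-vector measured 9.68, 10.47 and 10.14 with TNF against 9.19 to 9.48, a difference of 0.76 (95% confidence interval -0.16 to 1.69, adjusted p = 0.96), and differed by -0.14 in HaCaT-p65. The difference between these responses was -0.90 ± 0.62 (adjusted p = 0.76), and that test called 0.0101% of all genes. In HaCaT-p65 1 of 53 pathway genes rose, MAFF (0.64), and 3 fell, CBR1, a carbonyl reductase (-0.70), TRIM16 (-0.49) and PRDX1, a peroxiredoxin (-0.42). In HaCaT-vector none passed (3 had unadjusted p-values under 0.05).

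The inhibitors were all measured on the last processing date, on 1 or 2 arrays a condition, and again no member was called by limma. The members with unadjusted p-values under 0.05 were GCLC with gefitinib in both media, HMOX1 with gefitinib in serum, and TXNRD1 with LY294002 and with U1026. With gefitinib in serum-grown HaCaT-EGFR, HMOX1 measured 4.95 and 5.39 against 3.97 to 4.50, a difference of 0.94 (95% confidence interval 0.39 to 1.49) that missed the threshold (adjusted p = 0.066) in a comparison that called 1.79% of all genes and left 33.3% without overlap. GCLC was also higher on both gefitinib arrays (9.87 and 9.91 against 9.27 to 9.42, difference 0.56, adjusted p = 0.18). With gefitinib and EGF, HMOX1 differed by -0.31 (-0.66 at 4 h and 0.27 at 8 h, 1 gefitinib array each, neither passing) and GCLC by 0.45 (adjusted p = 0.23), and 1.81% of all genes were called. CBR3 rose with gefitinib both with EGF (0.98) and with serum (0.54), and MAFF fell (-0.71 and -0.91). With EGF KEAP1 also rose (0.34), and with serum SQSTM1 (0.80) and TRIM16 (0.68) did.

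TXNRD1 had the largest values of the members with the other inhibitors. With LY294002 it measured 12.02 in HaCaT-EGFR and 11.54 in HaCaT-vector, and with U1026 11.75 and 11.64, above all 11 EGF arrays (10.46 to 11.33). Over both lines it differed by 0.75 with LY294002 (95% confidence interval 0.25 to 1.25, adjusted p = 0.18) and by 0.66 with U1026 (0.16 to 1.16, adjusted p = 0.15), where 0.693% and 3.02% of all genes were called. It was the only 1 of 9 members without overlap for either inhibitor, against 7.38% and 10% of all genes. Both were called when the date term was left out, a fit whose p-values leave out the error of the removed date effects and are too small. AKR1C1, AKR1C3 and AKR1B10 were 0.36 to 0.64 above the EGF mean on the HaCaT-EGFR arrays of both inhibitors and 0.27 to 0.85 below it on those of HaCaT-vector, differences of single arrays that have no replicate check. Of the pathway lists MAFF rose with both inhibitors (0.76 and 0.67), and with U1026 NFE2L1 rose (0.58) and CUL3, which ubiquitinates NRF2 together with KEAP1, fell by 0.51. Gefitinib, LY294002 and U1026 were not compared with each other. Gefitinib was given in HaCaT-EGFR alone, while LY294002 and U1026 were given in the same lines, on 1 array in each.

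**Figure D5:**
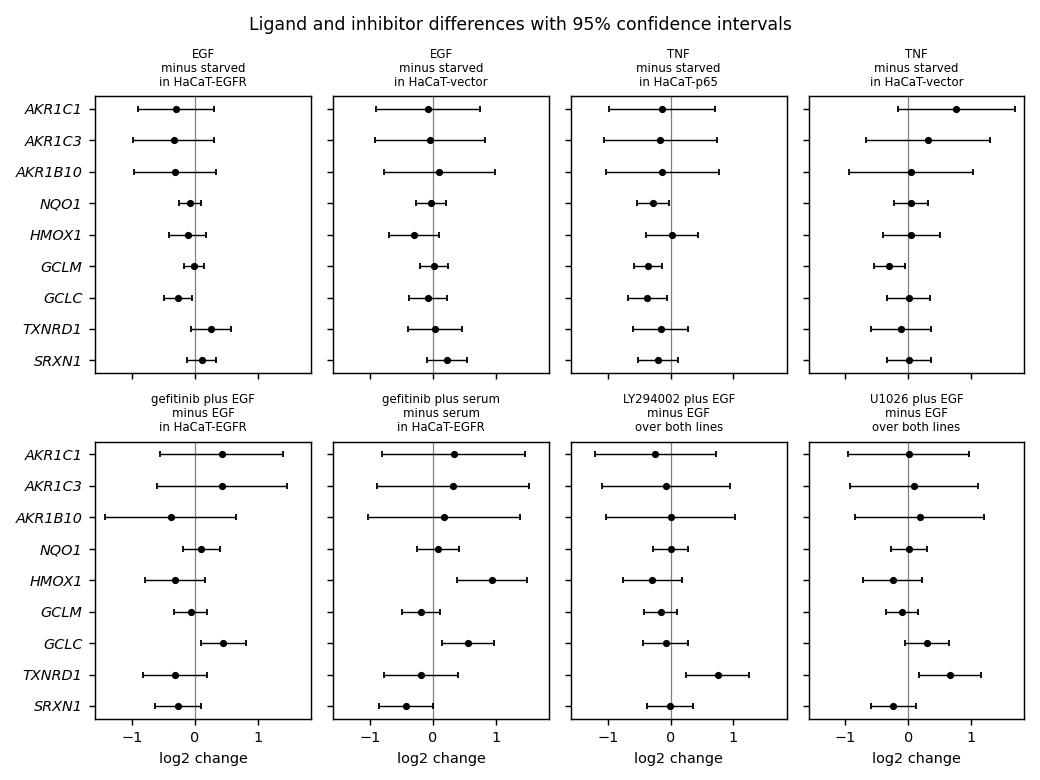
The log2 change of each member with its 95% confidence interval in the 4 ligand and 4 inhibitor comparisons (limma, not adjusted for multiple tests). The intervals of the 3 aldo-keto reductases are the widest, and those of HMOX1 with gefitinib in serum and of TXNRD1 with LY294002 and U1026 lie above 0 although none passed after adjustment.

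Ordered by their means over the 12 conditions without inhibitor, AKR1C1 ran from 11.70 in HaCaT serum to 7.80 in HaCaT-p65 with TNF, AKR1C3 from 7.95 in HaCaT-HRAS serum to 5.11 in HaCaT-p65 with TNF, and AKR1B10 from 7.47 in HaCaT-vector with EGF to 4.49 in HaCaT-p65 with TNF. GCLC, GCLM, NQO1 and HMOX1 were all lowest in HaCaT-HRAS serum, at 8.56, 8.01, 9.19 and 3.59. Their highest means were 10.46 (HaCaT-vector with TNF), 9.07 and 10.18 (both starved HaCaT-EGFR) and 4.88 (HaCaT-vector with TNF). TXNRD1 ran from 11.14 to 10.13 and SRXN1, with the smallest span, from 9.29 in HaCaT-HRAS serum to 8.65 in starved HaCaT-vector. For each member, the arrays of at least 10 of the 11 neighbours in this order overlapped, so most steps lie within the spread.

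Over these 12 means the members formed patterns of likeness, given as a description because the means share arrays and dates. AKR1C1 correlated with AKR1C3 (r = 0.903) and AKR1C3 with AKR1B10 (r = 0.805). GCLC correlated with TXNRD1 (r = 0.823) and NQO1 with GCLM (r = 0.81). AKR1C1 and GCLC had r = -0.217, and SRXN1 and GCLC r = -0.757. Among 4173 genes whose means ranged over more than 1 log2 unit, AKR1C2 was the most like AKR1C1 (r = 0.998), followed by OLFML2A (0.935) and CLCA2 (0.905), and CLCA2 (0.930), OLFML2A (0.927) and TCEA3 (0.922) were the most like AKR1C3. CAPNS2 (0.948), GLUL (0.947) and DOCK9-DT (0.947) were most like AKR1B10, MIR1915HG (0.970), ARID5B (0.961) and IDNK (0.955) most like GCLC, and CYP4F12 (0.960), ADIRF (0.950) and SKIDA1 (0.949) most like NQO1. For HMOX1 they were STAT4 (0.937), TENM3-AS1 (0.919) and TUBA3FP (0.915), for GCLM OSER1-DT (0.932), ZNF382 (0.927) and PDK2 (0.926), for TXNRD1 NR2F1 (0.947), SPATA8 (0.943) and SYCE2 (0.930), and for SRXN1 NXT1 (0.958), ESF1 (0.914) and CRLS1 (0.911).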

How the data were processed

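RNA of 58 HaCaT samples was hybridised to Affymetrix U133 Plus 2.0 arrays. The authors summarized 54675 probe sets with fRMA, estimated date effects in a limma model that also held condition, removed them and deposited log2 values, which were used unchanged. On refitting, date coefficients were at most 1.2e-08. The labels name a Qiagen kit, but the study's sample sheet names Trizol for the last date, which holds all inhibitor arrays.

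Of the probe sets, 41097 carried 1 symbol in the platform annotation, 1801 several and 11777 none. For each of 19775 genes the probe set with the largest mean was used, and the 20 probe sets of the members were also tested. limma 3.58.1 (R 4.3.3) fitted 18 conditions and 6 dates with 35 residual degrees of freedom, and p-values were adjusted over all genes at a threshold of 0.05. The number of arrays limits the precision. On simulated data based on these arrays, 84% of genes changed by 1 log2 unit were recovered when HaCaT-HRAS was set against HaCaT-vector, and 92% when EGF was set against starvation in HaCaT-EGFR. At 0.5 log2 units the shares were 30% and 66%. They average over genes drawn at random, so a gene with a wider spread is recovered less often.

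The members and the lists (7 lists, 60 genes, 53 measured) were chosen with earlier results of these data known. Named were the members, their probe sets, NFE2L2, KEAP1 and BACH1, up to 4 passing list genes by size per comparison, and the 3 genes most like each member. AKR1C2 and the marker genes were also named after their values were seen. Alternatives covered the date term, blocks, times, centring, the arrays in the fit, probe sets, a minimum mean of 5, eBayes settings, and leaving out arrays or the last date. Figures were drawn with matplotlib.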

Additional observations from a re-analysis of the deposited data

Results flagged for a closer look

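Of 54 combinations of a member and a condition with 4 to 10 arrays, 3 held an array far from the others by Dixon's test at the 95% level, close to the 1 in 20 that chance gives. AKR1C1 in HaCaT-p65 with TNF reached 8.96 on the second replicate at 4 h of date 3, where the next array was at 7.75 (5 arrays). AKR1C3 in HaCaT-EGFR with EGF was at 4.65 on the third replicate at 4 h of date 3, where the next array was at 5.97 (7 arrays). GCLM in starved HaCaT-EGFR was at 8.85 on the first replicate at 4 h of date 6, where the next was at 9.04 (7 arrays).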

How the results depend on the processing

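No change that passed, in the fit reported or in an alternative, turned its direction under any alternative run, but 60 changes that did not pass changed sign in at least 1 alternative, such as HMOX1 with gefitinib and EGF (-0.31, and 0.27 at 8 h). The fit without the date term takes the date effects removed by the authors as known, so its p-values are too small. Counts of members called moved as follows, in the order of the comparisons given. Without the date term they were 2 for HaCaT-vector against HaCaT, 4 each for HaCaT-EGFR and HaCaT-p65 against HaCaT-vector starved, 4, 7 and 2 for serum against starvation in HaCaT-EGFR, HaCaT-vector and HaCaT-p65, 1 for TNF in HaCaT-p65, 2 for gefitinib with serum, and 1 each for LY294002 and U1026. With a replicate block they were 3 for HaCaT-vector and 5 for HaCaT-HRAS against HaCaT, 0 and 2 for starved HaCaT-EGFR and HaCaT-p65 against HaCaT-vector, and 1 each for TNF in HaCaT-p65 and gefitinib with serum. Same-numbered arrays correlated above 0.1 in 41 of 94 pairs (-1 to 0.594), and in 22 of 30 on date 1 (10, 3 and 9 of 10 for numbers 1, 2 and 3). The fit reported did not take the numbers to pair the arrays, but on date 1, which holds most serum arrays, they may be paired. The -1 lies on date 6, where removing dates forces opposite deviations on the 1 starved and 1 EGF array of HaCaT-vector, so it does not bear on pairing. The block also added AKR1C3 in HaCaT-vector and HaCaT-EGFR against HaCaT, GCLM in HaCaT-vector against HaCaT and in HaCaT-p65 against HaCaT-vector, HMOX1 in HaCaT-HRAS against either and in HaCaT-p65 against HaCaT, SRXN1 in HaCaT-HRAS against HaCaT and AKR1C1 in starved HaCaT-p65. With the times as separate conditions, the 2 starved line comparisons had 0 and gefitinib with serum 1. At 4 h only, the starved line comparisons had 0. Serum against starvation in HaCaT-EGFR holds 1 serum array at either time, so no count is given for it. In fits of only the arrays compared, HaCaT-vector, HaCaT-EGFR and HaCaT-p65 against HaCaT had 0, HaCaT-HRAS against HaCaT 1, the starved lines 0 and 5, and serum against starvation 0 in HaCaT-EGFR and 8 in HaCaT-vector. The fits with 5 and 8 held no date term, since no date holds both of their groups, so group and date cannot be told apart in them. Over all probe sets, starved HaCaT-EGFR against HaCaT-vector and the medium in HaCaT-p65 had 0. With a minimum mean of 5, the medium in HaCaT-vector and gefitinib with serum had 1, and with trend and robust eBayes the former had 1. Without the array that the sample sheet calls a control, TNF in HaCaT-p65 had 1. Without the last date, HaCaT-p65 against HaCaT-vector had 0 and HaCaT-EGFR against HaCaT 1. Centring the arrays moved no such count by over 1.5 times.

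With single arrays left out, the counts ranged from 1 to 2 for HaCaT-EGFR and from 0 to 1 for HaCaT-p65 against HaCaT-vector in serum, from 1 to 3, 1 to 4 and 1 to 4 for HaCaT-EGFR, HaCaT-p65 and HaCaT-HRAS against HaCaT, from 0 to 2 and 0 to 1 for the starved lines, from 0 to 2 and 0 to 1 for the medium in HaCaT-EGFR and HaCaT-p65, and from 0 to 2 for TNF in HaCaT-p65. Of the 23 calls, 7 passed in all such fits: AKR1C1 in HaCaT-vector and HaCaT-p65 against HaCaT, NQO1 in HaCaT-EGFR, AKR1C1, AKR1C3 and GCLC in HaCaT-HRAS against HaCaT-vector, and GCLC in HaCaT-HRAS against HaCaT. The call counts over all genes moved by over 1.5 times in 15 of 22 comparisons without the date term, 17 with only the arrays compared and 3 with the block. The small numbers of arrays, 1 or 2 for each inhibitor condition, limit what can pass, and dim probe sets such as that of HMOX1 lie near the background.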
